A study of Mus musculus with 22 samples.

Results

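The genes described here are 10 regulators of B lineage stages: Ebf1, Pax5, Foxo1, Bach2, Bcl6, Irf8, Pou2af1, Irf4, Prdm1 and Xbp1. They were chosen by name, with earlier results of these data known, as regulators that mark successive steps from the pro-B cell to the plasma cell. All 10 were found among the 52636 genes of the count table. Ebf1 and Pax5 commit progenitors to the B lineage and hold B cell identity, and Foxo1 supports the early stages by driving genes such as Il7r, Rag1 and Rag2. Bach2 and Bcl6 hold activated and germinal centre B cells short of plasma cell differentiation, in part by repressing Prdm1. Prdm1 (Blimp-1), Irf4 and Xbp1 form the opposing arm, which ends the B cell programme and builds the secretory apparatus of the plasma cell.

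The samples were 22 mouse lymphoma libraries from 15 mice of a mixed (129/C57Bl6) strain, sequenced from the 3' end of messenger RNA. All mice carried floxed p53 alleles and Mb1Cre, a Cre expressed from the Cd79a locus, so that deletion begins in early B lineage cells. Ages are not in the labels used here. MCL-like primary tumours (4 mice; MCL is mantle cell lymphoma) and tumours called Ccnd2 non-MCL (3 mice) had the genotype R26-Ccnd2tg/tg;p53fl/fl;Mb1Cretg/+. The p53-only tumours (7 libraries, 6 mice, all non-MCL) had the genotype p53fl/fl;Mb1Cretg/+. Replicates 2 and 5 of the p53-only group came from 1 mouse. Tumours passaged in immunodeficient NSG hosts gave 6 MCL-like transplant libraries (4 mice) and 2 libraries labelled Ccnd2 non-MCL (1 mouse). NSG hosts lack their own mature T, B and NK cells but keep myeloid, erythroid and stromal cells.

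Library totals ran from 3159419 to 4739716 counts in MCL-like primaries, 2693399 to 8146613 in Ccnd2 non-MCL primaries, 2936387 to 6057077 in p53-only primaries, 3050785 to 5825652 in MCL-like transplants and 3780128 to 3934589 in the remaining transplants. Most primaries came from the spleen, with mediastinal, mesenteric and thymic tumours and lymphomas of unstated site among the rest. The general B cell markers summed to 4931 to 7870 CPM (counts scaled to the library total) in MCL-like, 1672 to 2821 CPM in Ccnd2 non-MCL and 1351 to 3929 CPM in p53-only primaries, and none of the 8 was at 0 in a group. The titles of the 6 MCL-like transplants call them non-MCL, against their immunophenotype entry, which was followed here. In the 2 transplants labelled Ccnd2 non-MCL, Ccnd2 itself was at 45.8 and 83.4 CPM, below the 451 CPM of the lowest primary of that genotype. Whether transgene reads fall under this gene was not tested, and these 2 libraries are given as values under their label only. Floxed p53 alleles cannot be checked with 3' tags, which may lie outside the deleted part.

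Bach2 and its target Prdm1 had the lowest adjusted p of the 10 regulators between MCL-like and all non-MCL tumours. The 250 bases before their RefSeq start sites are therefore printed, with those of Pou2af1, where the search found an element of the unfolded protein response. All 10 genes had entries in the RefSeq table (build GRCm38.p6). Sequences run 5' to 3' on the gene's own strand, and capitals mark motif matches. The windows are chr4:32417185-32417434 (plus strand) for Bach2, chr10:44458749-44458998 (minus strand) for Prdm1 and chr9:51213440-51213689 (plus strand) for Pou2af1. The first and second lie inside the GENCODE spans of their genes and overlap no exon there.
Bach2: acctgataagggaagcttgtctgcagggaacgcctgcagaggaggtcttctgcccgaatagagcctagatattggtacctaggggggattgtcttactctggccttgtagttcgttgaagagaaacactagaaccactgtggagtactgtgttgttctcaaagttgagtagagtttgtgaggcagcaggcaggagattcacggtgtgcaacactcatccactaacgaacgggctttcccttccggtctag
Prdm1: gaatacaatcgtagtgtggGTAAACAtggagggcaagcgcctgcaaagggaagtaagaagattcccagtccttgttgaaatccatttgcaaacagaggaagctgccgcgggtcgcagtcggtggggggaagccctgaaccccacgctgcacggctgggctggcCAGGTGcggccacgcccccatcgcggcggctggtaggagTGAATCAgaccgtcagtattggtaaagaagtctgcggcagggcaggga
Pou2af1: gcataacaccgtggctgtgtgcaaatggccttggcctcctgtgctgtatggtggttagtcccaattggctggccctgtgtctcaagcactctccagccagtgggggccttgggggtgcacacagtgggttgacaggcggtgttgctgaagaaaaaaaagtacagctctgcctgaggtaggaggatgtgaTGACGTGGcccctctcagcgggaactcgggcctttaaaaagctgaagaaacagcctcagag

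Motifs were searched on both strands as exact letters. Prdm1 held 3 matches. GTAAACA at -231, counted from the start site, is the reverse complement of the Foxo motif TGTTTAC, which 3.166% of the 32851 RefSeq windows of this length held. CAGGTG at -87 is the E-box bound by Tcf3, held by 17.22% of windows and also found before Irf8 and Xbp1. TGAATCA at -48 matches TGANTCA, the element shared by Bach2 and AP-1 factors, held by 6.749%. Pou2af1 held TGACGTGG, the element of Xbp1, at -61, and 0.5631% of windows held it. The Bach2 window held none of the 8 motifs searched. The others were TCCC and GGGA set 2 bases apart for Ebf1 (0.7793% of windows), a pair of GAAA set 2 bases apart for IRF factors (2.977%), the octamer ATGCAAAT that recruits Pou2af1 (1.601%) and GAAAGTG for Prdm1 (4.009%). The Ebf1 motif occurred before the Foxo1 start at -92, and the IRF and Prdm1 motifs before separate starts of Ebf1 at -155 and -172. A match describes these letters only, and 3' tags do not show which start site a tumour uses.

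Bach2 separated the tumours by immunophenotype. Bach2 (ENSMUSG00000040270, GRCm38 chromosome 4, 32238804 to 32586108) encodes a repressor that keeps B cells from becoming plasma cells. It was at 10.1, 11.4, 25.95 and 110.4 CPM in MCL-like primaries 1 to 4. Ccnd2 non-MCL primaries 1 to 3 had 239, 272 and 156 CPM. The p53-only libraries 1 to 7 had 156, 499, 204, 1112, 520.0, 357 and 807 CPM. Every MCL-like primary was below every non-MCL primary, with replicate 4 the highest of its group. MCL-like transplants 1 to 6 had 14.5, 25.1, 45.9, 56.7, 42.9 and 2.34 CPM, again all below the non-MCL libraries. The 2 transplants labelled Ccnd2 non-MCL had 1630 and 525 CPM. Transplant 5 came from a mouse with no primary library here, and the other MCL-like transplants share mice with primaries 1, 2 and 4.

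**Figure D1:**
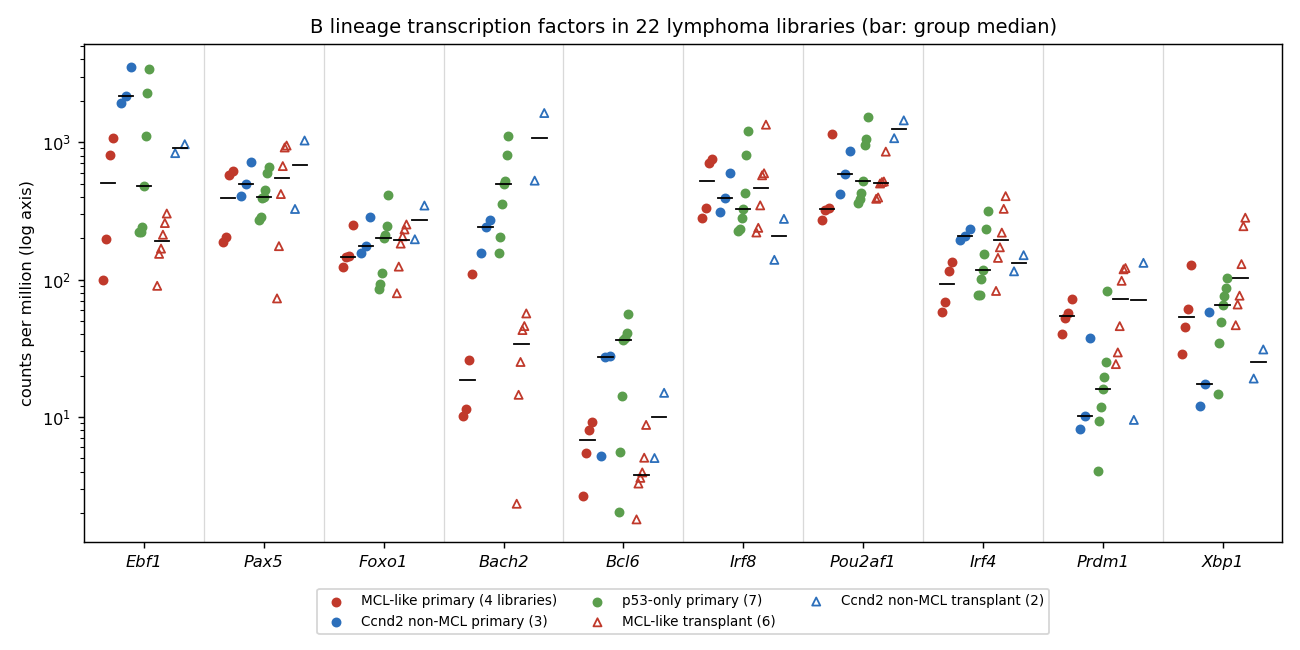
CPM (log axis) of the 10 regulators in each of the 22 libraries, coloured by group, with a bar at the group median; circles are primaries and triangles transplants. All 10 MCL-like libraries lie at or below 110.4 CPM for Bach2 and all non-MCL libraries at or above 156 CPM, while Pax5, Foxo1 and Irf8 overlap between groups.

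Comparing the 4 MCL-like mice with all 9 non-MCL mice asks what goes with the immunophenotype, with genotype unbalanced between the groups. Bach2 was at 38.6 ± 42.0 TMM-scaled CPM (SD, n = 4) in MCL-like and 400 ± 291 (n = 9) in non-MCL mice, where TMM scaling sets libraries to a common composition. Its log2 fold change was -3.37 (SE 0.74, edgeR quasi-likelihood test with Benjamini-Hochberg adjustment, adjusted p = 0.0209), and all 9 non-MCL mice lay above all 4 MCL-like mice. Bach2 was the only one of the 10 regulators called at an adjusted p under 0.05 (0 higher, 1 lower), beside 5.51% of the 12434 genes tested, of which 3.11% were called higher and 2.4% lower (387 and 298 genes, or 298 and 447 when scaled by library size only). It was also the only 1 of 10 without overlap between the groups, a pattern seen in 4.86% of tested genes. All 10 regulators passed the low-count filter in this and every other fit. Their median log2 fold change was -0.17, against -0.07 over all tested genes. The call on Bach2 was lost without MCL-like replicate 1, 2 or 3 (adjusted p = 0.0641, 0.0645 and 0.0700, edgeR), and without replicate 4 the log2 fold change was -4.48 (adjusted p = 0.0156). It was also lost among spleen libraries alone (-2.52, adjusted p = 0.155), and without the libraries whose names begin with oTP, all of them non-MCL (-2.86, adjusted p = 0.0567).

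MCL-like and Ccnd2 non-MCL primaries carry the same genotype label, so this comparison holds genotype fixed. It shares the MCL-like mice with the comparison above. None of the 10 regulators was called by edgeR (0.308% of 12967 genes were), 3 of them had an unadjusted p under 0.05, and DESeq2 called 1, Bach2 (adjusted p = 0.0198). Bach2 was at 38.0 ± 42.0 against 217 ± 65.2 TMM-scaled CPM (log2 fold change -2.51, SE 0.75, edgeR adjusted p = 0.125). Bach2, Ebf1, Irf4 and Prdm1 did not overlap between these 4 and 3 mice, 4 of 10 genes, beside 16.6% of all tested genes. The median of the 10 was -0.29, against -0.04 over all tested genes. Ccnd2 non-MCL against p53-only mice (3 against 6) differ in the transgene label. There edgeR called 0% of 12967 genes, with 1330 at an unadjusted p under 0.05 and 129 called by DESeq2. None of the 10 regulators was called by either tool or had an unadjusted p under 0.05, and their log2 fold changes ran from -1.22 (Bach2) to 1.04 (Ebf1).

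**Figure D2:**
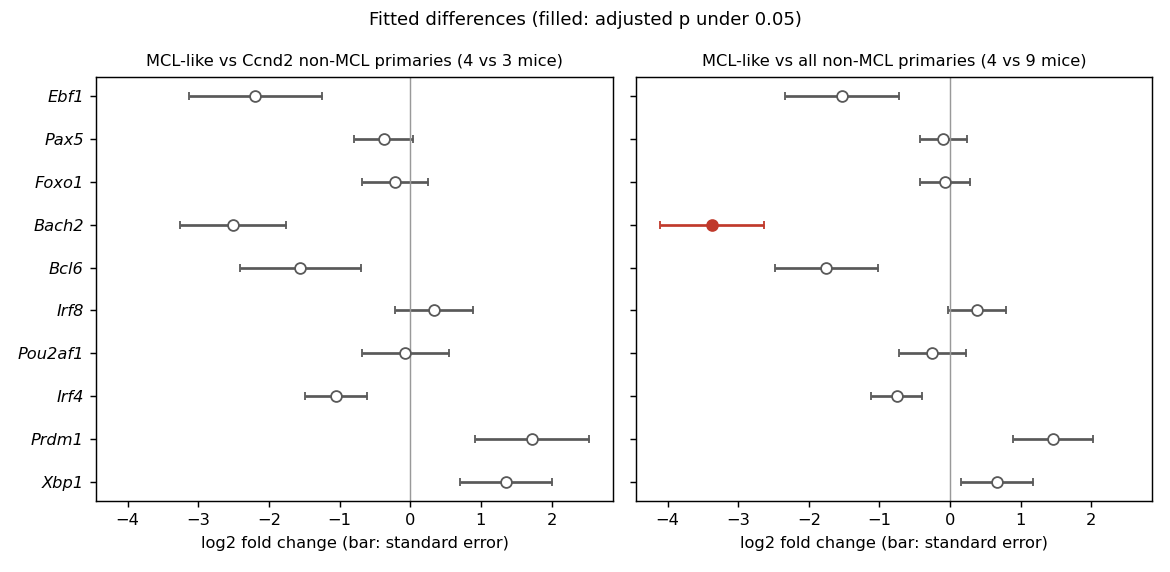
Log2 fold changes with standard errors from edgeR for the 10 regulators, MCL-like against Ccnd2 non-MCL mice (left) and against all non-MCL mice (right); a filled point has an adjusted p under 0.05. Bach2 has the lowest value in both panels, and it is filled in the right panel at -3.37.

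Ebf1 was highest in the tumours with high Vpreb1. Ebf1 (chromosome 11, 44617317 to 45008091) was at 98.7, 199, 803 and 1078 CPM in MCL-like primaries 1 to 4. Ccnd2 non-MCL primaries had 1922, 3548 and 2169 CPM. The p53-only libraries 1 to 7 had 221, 243, 221, 2281, 483, 1109 and 3435 CPM. The high p53-only libraries, replicates 4, 6 and 7, were also those with Vpreb1, a surrogate light chain of pre-B cells, at 5132, 458 and 2879 CPM, whereas the other 4 had at most 5.45 CPM of that pre-B gene. All 3 Ccnd2 non-MCL primaries had 2424 to 5691 CPM of Vpreb1, and MCL-like primaries 1 to 3 had at most 1.90 CPM, with 224 CPM in replicate 4. MCL-like primary 3 had 803 CPM of Ebf1 without such Vpreb1. The 2 transplants labelled Ccnd2 non-MCL had 967 and 833 CPM of Ebf1 with 2.91 and 0.762 CPM of Vpreb1. MCL-like transplants had 90.1 to 303 CPM of Ebf1. The log2 fold change of Ebf1 was -2.19 (SE 0.94, edgeR adjusted p = 0.257) against Ccnd2 non-MCL and -1.54 (SE 0.81, adjusted p = 0.252) against all non-MCL mice. The difference from Ccnd2 non-MCL mice therefore cannot be told apart from the Vpreb1-high state that all 3 of them shared.

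**Figure D3:**
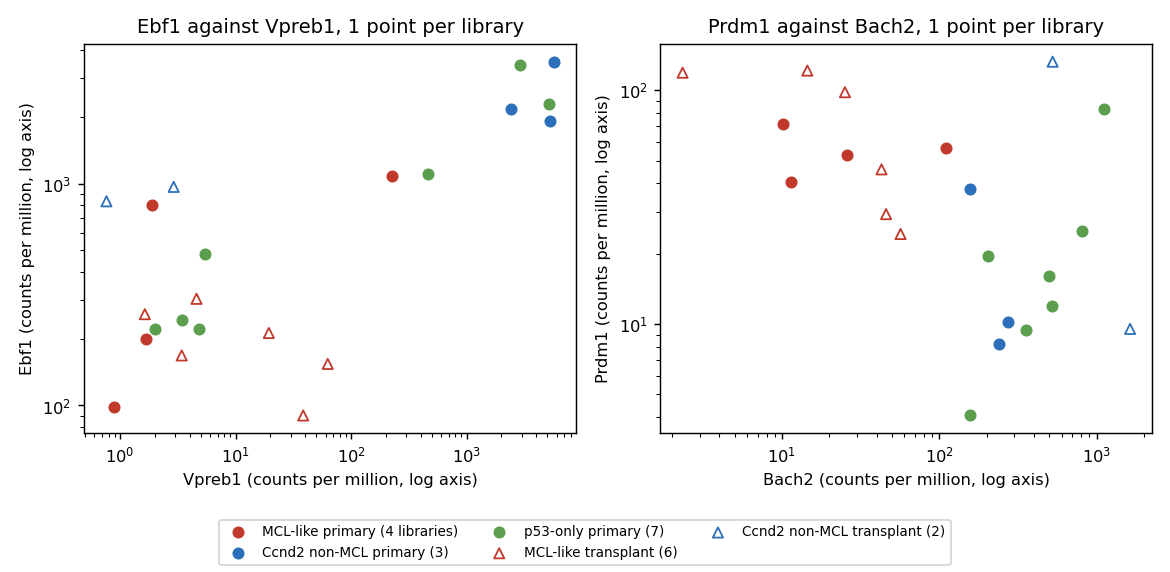
Ebf1 against Vpreb1 (left) and Prdm1 against Bach2 (right), CPM on log axes, 1 point per library, circles for primaries and triangles for transplants. The 5 libraries with Vpreb1 above 2000 CPM have the 5 highest Ebf1 levels, and the p53-only library at 1112 CPM of Bach2 also has high Prdm1, at 83.2 CPM.

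Pax5 and Foxo1 overlapped between the primary groups. Pax5 (chromosome 4, 44524757 to 44710487), the guardian of B cell identity, was at 187, 205, 579 and 612 CPM in MCL-like primaries. It was at 715, 405 and 493.3 CPM in Ccnd2 non-MCL primaries and at 272 to 663 CPM (median 401) in p53-only libraries. MCL-like transplants spread more widely, from 73.0 and 175 CPM in transplants 1 and 2, which share a mouse, to 915 and 945 CPM in transplants 3 and 4, which share another. Foxo1 (chromosome 3, 52268336 to 52353221) was at 145, 147.9, 123 and 249 CPM in MCL-like primaries. Ccnd2 non-MCL primaries had 284, 156 and 177 CPM of it, and p53-only libraries 85.2 to 416 CPM. Against all non-MCL mice the log2 fold changes were -0.10 (SE 0.33) for Pax5 and -0.07 (SE 0.36) for Foxo1, with edgeR adjusted p = 0.881 and 0.917. The sign of both turned among spleen libraries alone, to 0.16 and 0.21.

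A few known targets of these factors fell in MCL-like tumours. Of 14 Pax5 and Ebf1 target genes tested, 2 were lower and 0 higher in MCL-like than in all non-MCL mice (edgeR), with a median of -0.63 against -0.07 over all tested genes. The 14 split into 5 with positive and 9 with negative log2 fold changes, and DESeq2 called 4 lower. Within one genotype the 14 split 7 and 7, with a median of -0.09 against -0.04 over all tested genes. Summed, the 14 were at 1859 to 3866 CPM in MCL-like, 5636 to 10661 CPM in Ccnd2 non-MCL and 1188 to 10843 CPM in p53-only primaries. The p53-only libraries low in Vpreb1, replicates 1, 2, 3 and 5, had 1188, 1825, 1784 and 3740 CPM, so low sums were not particular to MCL-like tumours. The 2 called lower by edgeR were Vpreb3, a pre-B cell chaperone-like protein (log2 fold change -3.75, SE 0.69, adjusted p = 0.0113, no overlap), and Bst1, a surface enzyme of early B cells (-4.99, SE 1.36, adjusted p = 0.0461). Of 9 Foxo1 target genes 3 were lower and 0 higher, with a median of -1.46, which was -0.21 within one genotype. Their sums overlapped, at 447 to 888 CPM in MCL-like, 874 to 1468 CPM in Ccnd2 non-MCL and 510 to 1300 CPM in p53-only primaries. Il7r, the receptor of the pro-B cell cytokine, was at 38.1 ± 22.6 against 412 ± 315 TMM-scaled CPM (-3.43, SE 0.84, adjusted p = 0.0323). The recombinase genes Rag1 and Rag2 had 1 and 4 counts in the 4 MCL-like primaries together, against 107 ± 108 and 13.9 ± 17.8 TMM-scaled CPM in non-MCL mice (edgeR adjusted p = 0.0126 and 0.0437). Non-MCL means pool tumours high and low in Vpreb1, and the part of that split in these differences was not tested. Bst1 was at 0.633 to 5.35 CPM in MCL-like, 67.6 to 119 CPM in Ccnd2 non-MCL and 1.01 to 177 CPM in p53-only primaries, with overlap. In the comparison within one genotype, edgeR called Vpreb3 (-4.24, SE 0.75, adjusted p = 0.0471) and none of the 9 Foxo1 targets (4 at an unadjusted p under 0.05, 3 by DESeq2). The call on Vpreb3 against all non-MCL mice held when any single mouse was left out, and was lost without the oTP libraries (adjusted p = 0.0735, edgeR) and in spleen (0.118). Rag1 lost it without MCL-like replicate 3 (adjusted p = 0.0554), without the oTP libraries (0.0622), with the oTP prefix as a covariate (0.0562) and in spleen (0.168). Il7r lost it without the oTP libraries (0.113), with the covariate (0.116), in spleen (0.244) and without MCL-like replicate 1, 2, 3 or 4 or p53-only replicate 6. It also lost the call with no low-count filter (0.0611) and with each library as a replicate (0.0523). The highest adjusted p of Il7r with a mouse left out was 0.0920. Bst1 and Rag2 lost their calls, at adjusted p up to 0.133 and 0.116, without any 1 of the 4 MCL-like mice, of Ccnd2 non-MCL replicates 1 and 3, or of p53-only replicates 4, 6 and 7, and also with the oTP covariate (0.146 and 0.161). Bst1 and Rag2 had a value in 19 alternatives each, against 21 for Rag1 and Il7r, so not every setting tested them. The call on Vpreb3 within one genotype was lost, at up to 0.135, without any 1 of the 4 MCL-like mice, of Ccnd2 non-MCL replicates 1 and 2, or of p53-only replicate 6.

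Bcl6, the repressor that defines germinal centre B cells (chromosome 16, 23965052 to 23988852), was below 10 CPM in every MCL-like library. It was at 2.68, 5.49, 9.18 and 8.06 CPM in MCL-like primaries, 5.20, 27.3 and 27.7 CPM in Ccnd2 non-MCL primaries and 2.03, 56.0, 41.2, 14.3, 36.1, 5.59 and 37.4 CPM in p53-only libraries 1 to 7. Of 9 non-MCL mice 6 lay above all MCL-like mice and 1 lay below them, so the groups overlapped. MCL-like transplants had 1.80 to 8.76 CPM. The log2 fold change against all non-MCL mice was -1.75 (SE 0.73, edgeR adjusted p = 0.151). Of the 6 germinal centre genes tested, edgeR called none (2 at an unadjusted p under 0.05, 0 by DESeq2), with a median of -1.06.

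Irf8 and Pou2af1 overlapped between all primary groups. Irf8 (chromosome 8, 120736358 to 120756694), a factor of germinal centre B cells and of myeloid cells, was at 330.4, 281, 709 and 755 CPM in MCL-like primaries. The Ccnd2 non-MCL tumours had 601, 391.8 and 309 CPM of Irf8, and the p53-only libraries 225 to 1207 CPM (median 324). The highest of these, 1207 and 802 CPM, were replicates 2 and 5, the libraries that share a mouse. Summed macrophage markers ran from 586 to 1262, 410.1 to 1616 and 218 to 1490 CPM in those groups, and their part in the Irf8 levels was not tested. Pou2af1 (chromosome 9, 51213708 to 51240080), the octamer-binding coactivator also called OBF-1, was at 1147, 321, 272 and 332 CPM in MCL-like primaries. Levels were 861, 417 and 590 CPM in Ccnd2 non-MCL primaries and 359 to 1517 CPM (median 518) in p53-only libraries. MCL-like replicate 1, the mesenteric tumour, stood above the other 3. Against all non-MCL mice the log2 fold changes were 0.38 (SE 0.41, edgeR adjusted p = 0.593) for Irf8 and -0.25 (SE 0.48, adjusted p = 0.772) for Pou2af1, and both turned sign without the libraries named oTP, to -0.11 and 0.23.

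None of the plasma cell arm, Prdm1, Irf4 and Xbp1, passed the test between MCL-like and non-MCL primaries. Prdm1 (chromosome 10, 44437177 to 44528501) was at 71.7, 40.3, 52.9 and 56.7 CPM in MCL-like primaries. Ccnd2 non-MCL primaries had 8.17, 10.2 and 37.7 CPM, and p53-only libraries 1 to 7 had 4.06, 16.0, 19.6, 83.2, 11.9, 9.38 and 24.9 CPM. Of the non-MCL mice 8 of 9 lay below all MCL-like mice, and p53-only replicate 4 lay above them. MCL-like mice had 60.8 ± 19.1 and non-MCL mice 22.1 ± 21.97 TMM-scaled CPM (log2 fold change 1.45, SE 0.56, edgeR adjusted p = 0.127). Without p53-only replicate 4 the log2 fold change was 1.96 (adjusted p = 0.0285), and without the libraries named oTP it was 2.32 (adjusted p = 0.0301), both past the threshold. These settings overlap, because p53-only replicate 4 is itself one of the oTP libraries. Against Ccnd2 non-MCL mice the log2 fold change was 1.73 (SE 0.81, adjusted p = 0.298), and 2.71 (adjusted p = 0.0398) without the oTP libraries. The latter setting leaves out the highest Ccnd2 non-MCL primary, at 37.7 CPM. In MCL-like transplants 1 to 6 Prdm1 was at 121, 98.02, 29.5, 24.3, 45.8 and 119 CPM. The 2 transplants labelled Ccnd2 non-MCL, from 1 mouse, differed, at 9.52 and 132 CPM.

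Irf4 (chromosome 13, 30749226 to 30766976), needed both for germinal centre entry and for plasma cells, was at 116, 68.8, 58.2 and 135 CPM in MCL-like primaries. Ccnd2 non-MCL primaries had 208, 196 and 233 CPM, without overlap. The p53-only libraries 1 to 7 had 117, 77.4, 76.9, 233, 100, 154 and 316 CPM (median 117), highest in the libraries with Vpreb1, replicates 4, 6 and 7. As for Ebf1, the difference from Ccnd2 non-MCL mice cannot be told apart from the Vpreb1-high state that all of them shared. The log2 fold change was -1.05 (SE 0.44, edgeR adjusted p = 0.238) against Ccnd2 non-MCL and -0.76 (SE 0.36, adjusted p = 0.200) against all non-MCL mice. Xbp1 (chromosome 11, 5520659 to 5525893), the driver of the secretory programme, was at 127, 28.9, 44.9 and 61.3 CPM in MCL-like primaries. Its level was 17.5, 12.0 and 58.3 CPM in Ccnd2 non-MCL primaries and 14.7 to 103 CPM (median 65.4) in p53-only libraries. Its log2 fold change against all non-MCL mice was 0.66 (SE 0.51, edgeR adjusted p = 0.435). The counts do not separate the spliced, active form of its transcript.

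Of 14 plasma cell genes tested against all non-MCL mice, 2 were higher and 0 lower (edgeR), with a median of 0.34. Of the 14, 8 had an unadjusted p under 0.05, and DESeq2 called 4 higher and 2 lower. Within one genotype, against Ccnd2 non-MCL mice, the median was 0.76, edgeR called none, 5 had an unadjusted p under 0.05, and DESeq2 called 1 higher and 1 lower. The 2 genes called by edgeR were Creld2 (1.55, SE 0.40, adjusted p = 0.0373) and Edem1 (1.03, SE 0.28, adjusted p = 0.0444), both of the endoplasmic reticulum. Creld2 lost its call, at an adjusted p up to 0.191, without MCL-like replicate 1, 2 or 4, Ccnd2 non-MCL replicate 1 or p53-only replicate 4, 6 or 7. Edem1 lost it, at up to 0.134, without any 1 of the 4 MCL-like mice, of Ccnd2 non-MCL replicates 1 and 3, or of p53-only replicates 1, 3, 6 and 7. Both also lost their calls without the oTP libraries (0.182 and 0.105), with the covariate (0.135 and 0.114) and in spleen (0.533 and 0.158), where the log2 fold change of Creld2 was 0.66. The defining surface genes of plasma cells were near 0 in MCL-like primaries, with Sdc1 at 1.19 to 5.64 CPM and Tnfrsf17 at 0 to 1.19 CPM. Jchain ran from 1.90 to 214 CPM. Summed over all 15 listed plasma cell genes, levels overlapped between the primary groups. The sums were 1468 to 3278 CPM in MCL-like, 2046 to 3984 CPM in Ccnd2 non-MCL and 1514 to 3224 CPM in p53-only primaries. Of 6 genes that Prdm1 is known to repress, 1 was higher, Spib (1.72, SE 0.32, edgeR adjusted p = 0.0126), and 0 lower. Of these 6, 4 had an unadjusted p under 0.05, and DESeq2 called 1 higher and 2 lower. Id3 (-2.20, SE 0.71, adjusted p = 0.0762) and Myc (-2.08, SE 0.81, adjusted p = 0.127) came next and were not called. The median of the 6 was -0.19.

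Among 24 other B lineage transcription factors tested against all non-MCL mice, 5 were higher and 1 lower in MCL-like tumours (edgeR), with a median log2 fold change of 0.38. DESeq2 called 5 higher and 3 lower. Spib, an Ets factor of mature B cells, was at 616 ± 185 against 187 ± 82.2 TMM-scaled CPM, without overlap. Zbtb20, a factor of B1 and plasma cells, was at 808 ± 325 against 198 ± 104 (log2 fold change 2.03, SE 0.38, adjusted p = 0.0119). Sox4, a factor of pro-B cells, was at 6.81 ± 6.92 against 233 ± 163 (-5.08, SE 0.96, adjusted p = 0.0126). The remaining 3, Tcf4 (1175 ± 627 against 283 ± 166), Pou2f2 (898 ± 292 against 224 ± 160), which encodes the octamer factor Oct-2, and Zbtb32 (193 ± 76.9 against 13.4 ± 23.2), are named because the count is small, after their values were seen. Among 8 general B cell markers 2 were higher, Cd37 (1.98, SE 0.28, adjusted p = 0.00475) and Ms4a1 (3.23, SE 0.84, adjusted p = 0.0410). Spib and Cd37 kept their calls under every alternative run. Zbtb20 and Sox4 kept theirs when any single mouse was left out. Zbtb20 lost it without the oTP libraries (adjusted p = 0.112, edgeR), with the oTP covariate (0.0767) and in spleen (0.109), and Sox4 without the oTP libraries (0.0567) and in spleen (0.142). Tcf4, Pou2f2 and Ms4a1 lost theirs in all 3 of these settings, at adjusted p up to 0.250, 0.249 and 0.202, and Zbtb32 with the covariate (0.116) and in spleen (0.184). With a mouse left out, Tcf4 lost its call without MCL-like replicate 1 (adjusted p = 0.0641), and Pou2f2 and Ms4a1, at up to 0.112 and 0.104, without any 1 of the 4 MCL-like mice, of Ccnd2 non-MCL replicates 1 and 3, or of p53-only replicates 1, 6 and 7. Zbtb32 lost it, at up to 0.101, without any 1 of the 4 MCL-like mice, of Ccnd2 non-MCL replicate 1, or of the p53-only mice other than replicate 3. Within one genotype, against Ccnd2 non-MCL mice, edgeR called none of the 24 factors (9 at an unadjusted p under 0.05, 4 by DESeq2), with a median of 0.29.

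Markers of other cell types also differed in level between the groups. Summed T cell markers (8 genes, none at 0 in a group) were at 137 to 317 CPM in MCL-like, 13.5 to 77.5 CPM in Ccnd2 non-MCL and 4.19 to 245 CPM in p53-only primaries. In the library at 317 CPM, Cd28 alone made up 212 CPM, and Cd5 was at 24.1 to 47.0 CPM in MCL-like primaries. Cd3e was at 2.38 to 34.8, 0.371 to 2.95 and 0.275 to 32.2 CPM, in the same order of groups. What part of the sum came from T cells was not tested. Summed erythroid markers, 6 of 7 matched, ran from 22927 to 110310, from 3132 to 32047 and from 88.7 to 38035 CPM. Summed dendritic cell markers (7 genes, none at 0) ran from 30.6 to 145, from 5.94 to 71.9 and from 4.39 to 119 CPM. None of the T cell, macrophage, dendritic, neutrophil, NK, erythroid or stromal markers was called by edgeR against all non-MCL mice (1, 0, 1, 0, 0, 4 and 0 at an unadjusted p under 0.05, and 1 erythroid marker by DESeq2). Their median log2 fold changes were, in that order, 1.63, 0.33, 1.01, -0.95, 1.47, 2.33 and -0.35. T cells can also express Bach2, Prdm1 and Irf4, and dendritic cells Irf8, and the part of these cells in the levels above was not tested. In MCL-like transplants summed T cell markers were at 34.7 to 131 CPM, with Cd28 at up to 87.7 CPM, and erythroid markers at 274 to 117766 CPM. In bulk tissue fewer cells of a type and less RNA per cell cannot be told apart.

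Passage into NSG hosts was compared in 3 MCL-like mice that had both a primary and transplants, with the mouse as a block. EdgeR called 0% of 12020 genes (656 at an unadjusted p under 0.05, 29 by DESeq2) and none of the 10 regulators (2 at an unadjusted p under 0.05, 0 by DESeq2). The 2 were Irf4 and Xbp1, both higher in the transplant of all 3 mice. Irf4 went from 131, 69.8 and 108 TMM-scaled CPM in the mice of primaries 1, 2 and 4 to 378, 86.5 and 163 (log2 fold change 0.81, SE 0.33, edgeR adjusted p = 0.820). Xbp1 went from 143, 29.3 and 49.0 to 278, 48.7 and 73.6 (0.76, SE 0.27, adjusted p = 0.820). All 14 plasma cell genes tested had positive log2 fold changes, with a median of 0.71 against 0.01 over all tested genes, 4 at an unadjusted p under 0.05 and none called by edgeR (1 by DESeq2). Bach2 was at 11.4, 11.6 and 88.3 in the primaries and 20.1, 2.44 and 53.1 in the transplants. Ebf1 was at 111, 202 and 862 and then at 124, 176 and 290.0 TMM-scaled CPM, lower in the transplants of primaries 2 and 4. All 8 T cell, 8 macrophage and 6 erythroid markers tested had negative log2 fold changes in transplants, with medians of -2.11, -0.78 and -3.62, and the part of this shift in the regulators' values was not tested.

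**Figure D4:**
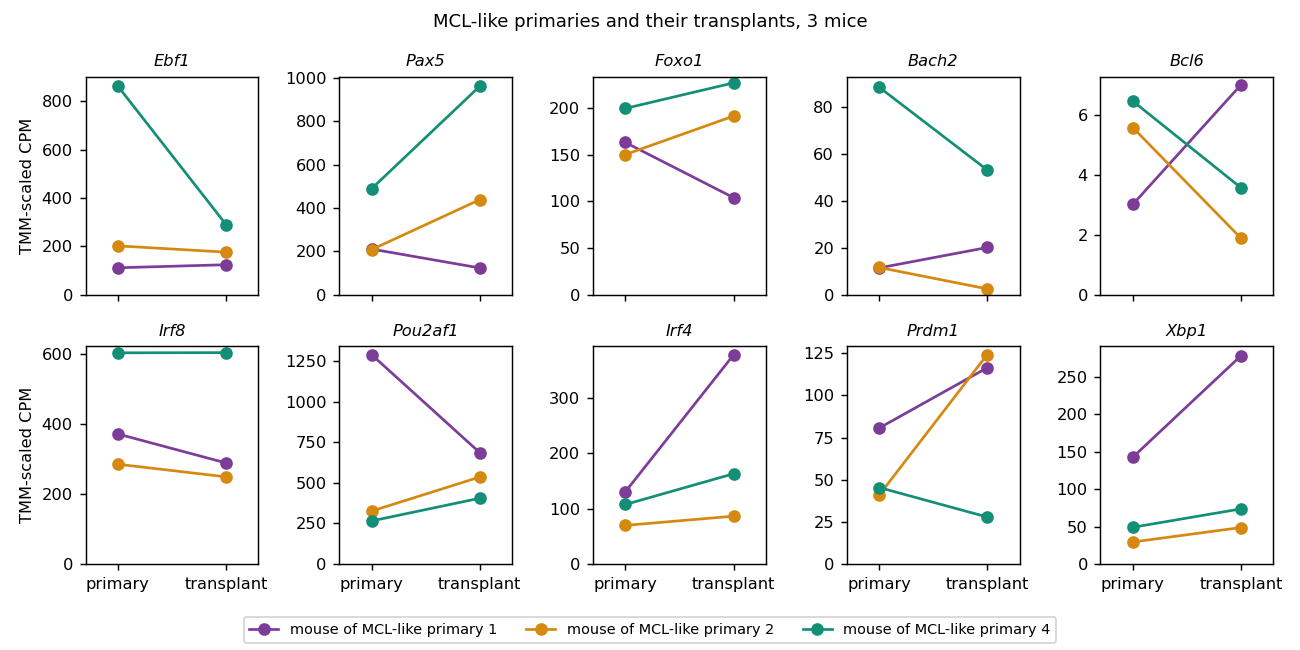
TMM-scaled CPM of each regulator in the primary and the summed transplants of 3 MCL-like mice, 1 line per mouse. Irf4 and Xbp1 are higher in the transplant on all 3 lines, while Bach2, Bcl6 and Prdm1 go up in some mice and down in others.

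The genes most like each regulator were taken as the 2 highest Pearson correlations of log2(TMM-scaled CPM + 1) over the 13 primary mice, among 8437 genes. These are descriptions, and the mice share their split into high and low Vpreb1. Bach2 was most like Csrp2 (0.958), a LIM protein, and Rnf157 (0.944). Ebf1 was most like Vpreb1 (0.922) and Wwc2 (0.921), Irf4 like Ano6 (0.933) and Pcdh9 (0.922), and Pax5 like Ogfrl1 (0.791) and Zfp608 (0.779). Foxo1 was nearest to Ifi206 (0.824) and to the B cell receptor chain Cd79a (0.770). Bcl6 was nearest to Prkch (0.838) and Laptm5 (0.813), Irf8 to Ap3m2 (0.846) and Zrsr1 (0.837), and Prdm1 to Gas7 (0.888) and Twsg1 (0.883). Xbp1 and Pou2af1 each had a gene of the secretory route among theirs. Xbp1 was nearest to Kif1bp (0.882) and Sec11c (0.857), a signal peptidase subunit, and Pou2af1 to Insig2 (0.915) and Kdelr2 (0.872), the receptor that returns proteins to the endoplasmic reticulum. Between the regulators themselves, the same measure was 0.705 for Ebf1 and Irf4, 0.679 for Prdm1 and Xbp1, and -0.43 for Bach2 and Prdm1.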

How the data were processed

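Libraries were made from RNA of fresh lymphoma cells with a 3' end kit, per the labels' protocols. FastQC, STAR and the build GRCm38 were used by the authors, per the submitters' processing notes. The counting tool, strand setting, annotation and versions were not given in the sources used here. All deposited values are the authors' raw counts per Ensembl gene, and 52489 of 52636 identifiers matched GENCODE M21, which gave symbols and coordinates. Without a stated strand, reads of overlapping genes cannot be told apart. The largest such overlaps were 5730488B01Rik (880 counts against 43961 for Pax5) and Bach2it1 (443 against 28222 for Bach2).

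The 10 regulators, the other gene lists and the tests were chosen with earlier results of these data known. Counts were summed per mouse and tested by quasi-likelihood in edgeR 4.0.16 (R 4.3.3), with TMM scaling, its default low-count filter and Benjamini-Hochberg adjustment over all tested genes. Calls were made below an adjusted p of 0.05. SE is the absolute log2 fold change over the square root of F. Levels per library are unscaled CPM, and levels in comparisons are TMM-scaled CPM per mouse as mean ± SD. Beside the 10, up to 3 genes per list with the lowest adjusted p were named, further ones being marked as such, together with Vpreb1 and the 2 nearest genes of each regulator. Results of 1 gene are not reported here. Alternatives were DESeq2 1.42.0, other scalings, no filter, libraries as replicates, the oTP name prefix (left out, or as a covariate), leaving out each mouse and, chosen after seeing the data, spleen libraries only. The code was tested on simulated data.

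All 231 pairs of libraries differed beyond counting noise (chi-square at least 5.85 times its degrees of freedom). The labels tie each transplant to its primary mouse, and over 12020 genes the deviations from group means had correlations of 0.263, 0.274 and 0.363 inside the 3 mice and between -0.27 and -0.03 across mice.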

Additional observations from a re-analysis of the deposited data

Results flagged for a closer look

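Of 30 regulator and group combinations with 4 to 10 mice, 4 had a mouse whose gap to the next was large against the range of its group (Dixon's criterion). Chance flags about 1 in 20 when values are normally distributed. These values were unlogged CPM, for which that rate was not checked, so 4 of 30 cannot be read as an excess. Bach2 in MCL-like primary 4 was at 110.4 CPM, and the next MCL-like mouse at 25.95 CPM. This mouse also had the highest Vpreb1 of its group, at 224 CPM. Prdm1 in p53-only replicate 4 was at 83.2 CPM, and the next mouse at 24.9 CPM, in the library with the highest Bach2 of that group (1112 CPM). Irf8 in the mouse of p53-only replicates 2 and 5 was at 1075 CPM, and the next mouse at 425 CPM. Pou2af1 in MCL-like primary 1, the mesenteric tumour, was at 1147 CPM, and the next mouse at 332 CPM.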

How the results depend on the processing

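The cause of the changes listed here was not tested, except that leaving out libraries also leaves fewer mice. Bach2 was lower in MCL-like than in all non-MCL mice under every alternative run. Its call was lost under the oTP covariate (-2.85, adjusted p = 0.0558, edgeR) beside the settings given with the result, and DESeq2 gave an adjusted p of 1.09e-05. Of 720 alternative log2 fold changes of the regulators, 667 kept direction and side of the threshold, 6 lost the call, 4 gained it and 43 turned sign. For the 16 called log2 fold changes of other genes, none of 333 alternative values turned sign and 124 lost the call. Spib and Cd37 lost it in none. Beside the settings given with the results, having no low-count filter cost the calls of Bst1 (adjusted p = 0.120, edgeR), Rag2 (0.0723), Edem1 (0.0964), Pou2f2 (0.0687), Zbtb32 (0.133) and Ms4a1 (0.120). Libraries as replicates cost those of Bst1 (0.0585), Rag2 (0.0619), Edem1 (0.0829), Ms4a1 (0.0549) and, within one genotype, Vpreb3 (0.0527). Library size only cost those of Creld2 (0.0525) and Edem1 (0.0823).

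Against Ccnd2 non-MCL mice 40 genes were called. The count was 22 with DESeq2's size factors, 895 with DESeq2, 371 with only the groups compared, 13 with each library as a replicate, 552 without the oTP libraries, 25 with the oTP covariate and 116 in spleen. Library size only moved the median of all genes from -0.04 to -0.16. Leaving out a mouse gave 0 (without MCL-like replicate 3, 1766 at an unadjusted p under 0.05) to 54. Pou2af1 (-0.07) turned to 0.14 with the oTP covariate and ran from -0.95 to 0.27 when a mouse was left out. In spleen Pax5 was at 0.0929 and Foxo1 at 0.0948, and Foxo1 ran from -0.34 to 0.12.

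Against all non-MCL mice 685 genes were called. The count was 1813 with DESeq2, 246 without the oTP libraries, 197 with the oTP covariate and 39 in spleen, and it ran from 176 (without MCL-like replicate 3) to 1065 (without Ccnd2 non-MCL replicate 2). The split of 387 higher and 298 lower became 298 and 447 with library size only, which moved the median of all genes from -0.07 to -0.22, and 798 and 1015 with DESeq2. Without the oTP libraries and with the oTP covariate, Irf8 was at -0.11 and -0.10, Pou2af1 at 0.23 and 0.25, and Foxo1 at 0.0344 and 0.0549. In spleen Foxo1 was at 0.21 and Pax5 at 0.16. When a mouse was left out, Foxo1 ran from -0.22 to 0.12, Pax5 from -0.42 to 0.0623 and Xbp1 from -0.0688 to 0.85. In the covariate fit the mouse of p53-only replicates 2 and 5 was split by prefix.

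Between Ccnd2 non-MCL and p53-only mice the count of 0 became 129 with DESeq2, 2 with no low-count filter and 116 without the oTP libraries, and ran from 0 to 8 when a mouse was left out. Irf8 (-0.01) was at 0.0386 with DESeq2's size factors, 0.0237 with library size only, 0.0345 with DESeq2 and 0.0136 with only the groups compared, and ran from -0.35 to 0.54. Pou2af1 was at 0.64 without the oTP libraries and 0.13 with the covariate. Bcl6 ran from -0.63 to 0.0787, Prdm1 from -1.43 to 0.34 and Foxo1 from -0.21 to 0.51.

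Between transplants and primaries the count of 0 became 29 with DESeq2 and 35 with no low-count filter, and ran from 0 to 14 when a mouse was left out. Library size only moved the median of all genes from 0.01 to -0.10. Without the replicate block by mouse it was 0, Pou2af1 was at -0.21 and Foxo1 at 0.0258, and no call changed. Bach2 ran from -1.37 to 0.0137, Bcl6 from -1.22 to 0.16, Prdm1 from -0.0736 to 1.07, Pou2af1 from -0.14 to 0.62 and Foxo1 from -0.22 to 0.23.

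Bcl6 had the fewest counts of the regulators, with 8 to 339 counts in p53-only and 9 to 30 in MCL-like primaries. With 3 to 9 mice a group, the p-values weigh each difference against the spread between mice. In the main fit within one genotype that spread was taken from all 13 primary mice, the p53-only group included. For the transplants it was the spread left after the mouse block.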
